A study of Caenorhabditis elegans with 2 samples.

Results

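The genes described here are the 129 small nuclear RNA (snRNA) genes of the Caenorhabditis elegans nuclear genome, taken as all genes whose type is snRNA in the Ensembl WBcel235 annotation, out of 46890 nuclear genes of any type. The same type also holds genes whose symbols mark other short RNAs: 12 sls-1 and 18 sls-2 genes of the spliced-leader RNAs, 10 smy genes of the SmY RNAs, and mir-1831, a 22-base entry that lies inside the snRNA gene sup-39. The label of spliceosomal snRNA genes therefore covers only part of the set. Binding of the transcription factor CND-1, a basic helix-loop-helix protein of the NeuroD family, was mapped near these genes by chromatin immunoprecipitation and sequencing (ChIP-seq). Whole embryos of strain OP349, of genotype unc-119(ed3) III with the transgene array wgIs349, made CND-1 fused at its C-terminal end to GFP and FLAG, and chromatin was precipitated with an antibody against GFP. The embryos were of mixed stage and both sexes, obtained by bleaching, with a labelled age of 3 hours. Both biological replicates belong to this 1 group, so there is no contrast between conditions, and a whole-embryo measurement cannot say in which cells a site was occupied.

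Spliceosomal snRNAs form the RNA core of the machine that removes introns: U1 RNA pairs with the 5′ splice site, U2 RNA with the branch point, U5 RNA holds the exon ends, and U6 RNA, carried in by U4 RNA, forms the catalytic centre. In nematodes the spliced-leader RNAs act in the same machinery and donate their first bases to the 5′ ends of many messenger RNAs. Across animals snRNA genes share an upstream promoter element read by the SNAP complex, with RNA polymerase II making most snRNAs and RNA polymerase III making U6 RNA, whose promoters also carry a TATA box. CND-1 is best known in the worm embryo for its part in the fate of motor neurons, and proteins of its family bind E-boxes, sites of the form CANNTG.

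The reference annotation gives most of these genes clone names and no RNA class, so they were grouped by sequence, joining genes of at least 80% identity, and each group is called by letters that most of its members carry. Group A has 13 genes, of which 12 carry ACTTACCTG, letters known from U1 RNA. Group B has 19 genes, of which 18 carry GTAGTATC, letters known from U2 RNA. Group C has 5 genes, all with GCTTTGCGC, known from U4 RNA. Group D has 12 genes, of which 11 carry GCCTTTTAC, known from U5 RNA, and group E has 23 genes, of which 22 carry ACAGAGA, known from U6 RNA. Such shared letters are a description of the reference sequence and not an annotation of the gene. Of the remaining genes, 17 sls-2 genes, the 12 sls-1 genes and 6 smy genes fell into groups under their own symbols, 2 genes on X formed a pair, and 20 joined no group, among them 1 sls-2 gene, 4 smy genes and mir-1831.

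The 80 bases before the start of a gene are where the shared promoter letters lie. They are shown for some members with a thresholded CND-1 summit and, in groups A to C only, for a member without one. Each is read 5′ to 3′ on the gene's strand from the RefSeq sequence of WBcel235 and ends at the base before the gene. Capitals mark a shared element, CCC, then any 6 bases, then TGTC. In group A the element was before 9 of the 13 genes, among them 4 of the 6 with a thresholded summit. The first printed are group A genes, of which sup-6 and sup-39 had a thresholded summit and F40G12.13 had none.
sup-6: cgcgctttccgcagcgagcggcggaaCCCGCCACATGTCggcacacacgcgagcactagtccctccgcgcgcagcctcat
sup-39: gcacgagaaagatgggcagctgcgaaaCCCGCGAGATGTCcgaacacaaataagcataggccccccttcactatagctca
F40G12.13: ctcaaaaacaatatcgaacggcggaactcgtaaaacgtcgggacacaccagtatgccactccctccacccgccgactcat
In group E, 4 members had a thresholded summit. Printed are W05B2.8 and F54D8.7, which also hold the TATA-like letters TATATAA nearer to the gene. The other members with a summit, C28A5.7 and R07E5.16, hold TATATAA but no exact match to the element.
W05B2.8: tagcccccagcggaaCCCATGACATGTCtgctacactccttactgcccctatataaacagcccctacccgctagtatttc
F54D8.7: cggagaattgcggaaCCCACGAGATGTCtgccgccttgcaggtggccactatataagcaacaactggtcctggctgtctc
In group B the element stood alike before F08G2.11, which had a summit, and before F08G2.9, which had none in the thresholded list.
F08G2.11: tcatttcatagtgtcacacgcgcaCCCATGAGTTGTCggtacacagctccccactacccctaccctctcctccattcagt
F08G2.9: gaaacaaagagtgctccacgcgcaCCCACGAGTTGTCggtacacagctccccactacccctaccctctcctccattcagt
In group C the element was absent before C52E4.8, which had a summit, and present before K03B8.10, which had none in the thresholded list.
C52E4.8: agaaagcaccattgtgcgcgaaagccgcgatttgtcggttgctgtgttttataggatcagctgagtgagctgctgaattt
K03B8.10: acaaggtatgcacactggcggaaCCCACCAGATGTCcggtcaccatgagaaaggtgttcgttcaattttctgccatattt
The element was before 7 of the 12 group D genes and 12 of the 18 sls-2 genes. Of the 5 sls-2 genes with a thresholded summit only 1, sls-2.8, held it. F38E11.10 of group D and the spliced-leader genes sls-2.1 and sls-2.2 had a summit and no exact match to the element.
F38E11.10: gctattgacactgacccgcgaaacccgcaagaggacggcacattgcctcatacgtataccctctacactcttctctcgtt
sls-2.1: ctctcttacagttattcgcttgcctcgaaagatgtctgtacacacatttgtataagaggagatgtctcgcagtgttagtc
sls-2.2: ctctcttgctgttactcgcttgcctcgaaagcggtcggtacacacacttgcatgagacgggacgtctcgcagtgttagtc
These windows lie at chrII:12944968-12945047, chrII:6968559-6968638, chrV:14267463-14267542, chrIII:10989599-10989678, chrIII:5080899-5080978, chrII:13852707-13852786, chrII:13836122-13836201, chrV:11980038-11980117, chrV:11391215-11391294, chrIV:9444562-9444641, chrII:5844785-5844864 and chrII:5543518-5543597, in the order printed. The genes sup-6, sup-39, F54D8.7, F08G2.9 and K03B8.10 are on the minus strand and the others on the plus strand.

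The element was common before snRNA genes with and without a thresholded CND-1 summit, and less so before those with no summit in any list. It was found on the gene's own strand within 80 bases upstream of 55 of the 129 genes (42.6%), against 0.533% of the 46890 nuclear genes searched on both strands in the same window. The share was 7.80% before snoRNA genes, 0.654% before tRNA genes and 0.386% before protein-coding genes. Its first base stood a median of 56 bases before the gene, within the range 69 to 25. Among members with a thresholded summit 9 of 19 (47.4%) held the element, and among those without 46 of 110 (41.8%), and mir-1831 counts the element of sup-39 a further time. T27E4.12 and T27E4.22 also share an element, so the 55 genes hold 53 distinct elements. The letters TATATAA, on either strand, were found before 17 members (13.2%), 15 of them in group E, against 2.98% of all nuclear genes. The element was chosen after the upstream sequences had been seen, and an exact match leaves out degenerate copies.

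Peak lists of 4 kinds were used. The authors' thresholded list, chosen from both replicates, has 1940 nuclear regions, and a pooled list and 1 list for each replicate have 30000 regions each, which by their labels mix peaks with background. The summit is the position inside each region that the authors marked as its highest point. Signal is the authors' own value for a region, on a scale not stated, and serves here only to rank regions within a list. For a replicate alone, its 1940 strongest nuclear regions were also taken, to match the thresholded list in size. Sequencing depth cannot be read from peak lists, and the exact intervals given for shares cover the counting of genes only. The intervals take genes as independent, although 44 of the 129 snRNA genes have an identical copy and some genes share a peak.

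CND-1 summits lay at a minority of snRNA genes, and among the strongest regions at a larger share of them than of all nuclear genes. A thresholded summit was within 100 bp of 19 of the 129 snRNA genes (14.7%, exact Clopper-Pearson 95% interval 9.11 to 22.0), against 3.34% of all nuclear genes. Among the strongest regions of replicate 1 the count was 20 (15.5%, interval 9.73 to 22.9) against 3.42% of all genes, and in replicate 2 it was 16 (12.4%, interval 7.26 to 19.4) against 3.35%. In these 3 lists of the strongest regions the lower bound of the snRNA share was above the share of all genes. Since mir-1831 lies inside sup-39 and shares its peak, and 4 members had 2 thresholded summits within 100 bp, 22 summits stand behind the count. Each gene is described by the strongest of its summits, which makes 18 peaks. In the long lists 51 members (39.5%, interval 31.0 to 48.5) had a summit in the pooled list against 28.6% of all genes, 48 (37.2%, interval 28.9 to 46.2) in replicate 1 against 28.9%, and 44 (34.1%, interval 26.0 to 43.0) in replicate 2 against 29.0%. In the long lists of the replicates the snRNA interval thus reached the share of all genes. The shares of all genes are lowered by the 15363 piRNA genes, which have a median length of 21 bases. Of these, 0.807% had a summit in the pooled list, 0.957% in replicate 1 and 0.859% in replicate 2. In the thresholded list the piRNA share was 0.0586%. Shares of all genes without piRNA genes were not counted, so no excess at snRNA genes is read from the long lists. In all, 67 of the 129 genes had no summit within 100 bp in any of the 4 lists, and the matching share of all genes was not counted.

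Among short RNA genes the snRNA share stood below that of tRNA genes and was close to that of snoRNA genes. In the thresholded list 34.6% of 612 tRNA genes (interval 30.9 to 38.6) and 19.1% of 346 snoRNA genes (interval 15.1 to 23.6) had a summit within 100 bp. The snRNA and snoRNA intervals overlap, and the snRNA and tRNA intervals do not, which is a description and not a test. The share was 6.53% for 7764 genes of the type ncRNA, 3.60% for protein-coding genes and 2.68% for miRNA genes, and 0 of 20 rRNA genes had a summit (interval up to 16.8). None of the 19 snRNA genes with a summit had that summit within 100 bp of a tRNA or snoRNA gene, so the count does not borrow peaks from those classes. The order of tRNA, snoRNA, snRNA and protein-coding genes was the same among the 1940 strongest regions of each replicate. In the long lists it was not: protein-coding genes, with a median length of 2027 bases against 109 for snRNA genes, stood above snRNA genes, at 49.3% against 39.5% in the pooled list, 50.5% against 37.2% in replicate 1 and 50.6% against 34.1% in replicate 2.

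**Figure D1:**
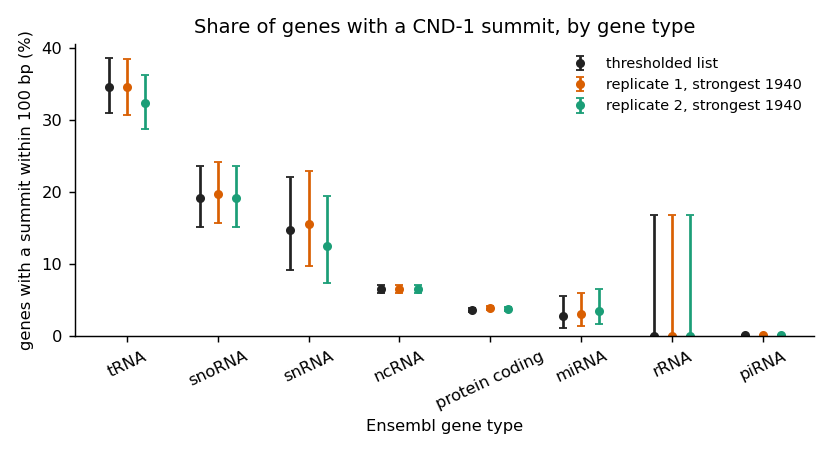
Share of genes with a summit within 100 bp (y axis, percent) for 8 Ensembl gene types (x axis), in the thresholded list and in the 1940 strongest regions of each replicate. Points are shares and bars exact 95% intervals. The snRNA points, from 12.4% to 15.5%, lie below the tRNA points and above the protein-coding ones in all 3 lists.

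The peaks at snRNA genes ranged from strong to weak within the list. Their median signal was 189.95, against 150.01 over all 1940 nuclear thresholded peaks, 221.04 at tRNA genes and 384.8 at snoRNA genes. At the 4 members with 2 thresholded summits only the stronger was counted. No such choice was made over all 1940 peaks, so the snRNA values can be raised by it. Of the 18 peaks, 13 (72.2%) were in the stronger part when the list is split at its median rank, and 5 were in the weaker part, at ranks 1481 to 1804 of 1940, while the best rank was 60. Among the 19 members 17 were also within the 1940 strongest regions of replicate 1, 16 within those of replicate 2, and 15 within both. The authors drew the thresholded list from these replicate lists, so part of this match is built in.

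**Figure D2:**
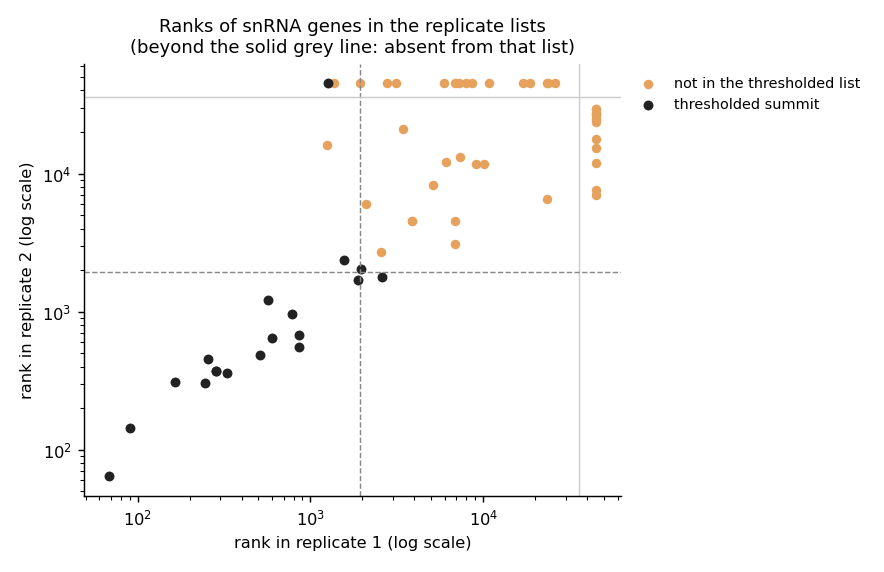
Rank of the strongest summit within 100 bp of each snRNA gene in the list of replicate 1 (x axis) and of replicate 2 (y axis), both on log scales where 1 is strongest. Dashed lines mark rank 1940, points beyond the solid grey lines have no summit in that replicate's list, and black points have a thresholded summit. The black points run from rank 68 to 2583 in replicate 1 and from rank 64 to 2362 in replicate 2, and 1 of them, sls-2.7, is absent from replicate 2.

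In group A, with the letters of U1 RNA, 6 of 13 members had a thresholded summit, against 3.34% of all nuclear genes. In the pooled list 11 of 13 had one, against 28.6% of all nuclear genes and 49.3% of protein-coding genes. Among the strongest regions of each replicate the count was 4, against 3.42% and 3.35% of all genes in replicates 1 and 2. The strongest was sup-6 (chrII:12944803-12944967), a gene of 165 bases inside the protein-coding gene F58G1.7, with signal 284.34 and rank 264, and ranks 245 and 303 in replicates 1 and 2. Next was sup-39 (chrII:6968394-6968558), inside C15F1.5, with signal 260.35 and ranks 323, 283 and 370 in the thresholded list and the 2 replicates. Both therefore stood in the upper part of every list, and both had the element of the printed sequences. F08H9.11 on V had signal 184.09 and ranks 665, 857 and 552. Its neighbour F08H9.10, the weakest of all 19 members, had signal 107.72 and ranks 1804, 2583 and 1771. The remaining members were near the lower end of the list: H27M09.6 with signal 112.68 and ranks 1652, 1955 and 2039, and T08G5.11 with signal 112.66 and ranks 1654, 1570 and 2362. For these last 3 genes the rank was past 1940 in at least 1 replicate.

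Group E, with the letters of U6 RNA, had 4 of 23 members with a thresholded summit, all 4 on chromosome III, and 16 with none in any list. It had 5 among the strongest regions of replicate 1 and 4 among those of replicate 2. The shares of all nuclear genes in these 3 lists were 3.34%, 3.42% and 3.35%. W05B2.8 (chrIII:10989679-10989780), inside dhc-4, was the second strongest member of the set with signal 405.43 and rank 108, and ranks 90 and 144 in the replicates. Its peak, chrIII:10989807-10989940, lay wholly past the 3′ end of the gene, with the summit at +138. F54D8.7 (chrIII:5080798-5080898), outside protein-coding genes, had signal 257.51 and ranks 330, 331 and 360. C28A5.7 had signal 220.49 and ranks 459, 508 and 487, and R07E5.16, inside mpc-1, had signal 178.67 and ranks 705, 855 and 679. All 4 thus stood in the stronger part of the list in both replicates. TATATAA was upstream of all 4, and of 15 of the 23 genes of the group in all. The element was before 5 of the 23, among them 2 of the 4 with a thresholded summit. In this group 17 genes have an identical copy elsewhere, up to 14 of 1 sequence, and W05B2.8, C28A5.7 and R07E5.16 belong to that set of 14. How the authors treated reads that match several places is not given in the sources used here, so which copy the reads came from is uncertain except where flanking bases differ.

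The groups with the letters of U2, U4 and U5 RNA each had 1 member in the thresholded list. In group B this was F08G2.11 (chrII:13852787-13852972), inside F08G2.8, with signal 119.62 and ranks 1481, 1874 and 1683, and in the pooled list and replicates 1 and 2 there were 9, 5 and 10 of 19 members. In group C it was C52E4.8 (chrV:11980118-11980261), with signal 165.19 and ranks 801, 571 and 1205, and there were 5, 4 and 3 of 5 members in those 3 lists. In group D it was F38E11.10 (chrIV:9444642-9444763), with signal 159.17 and ranks 874, 787 and 968, and there were 7, 7 and 5 of 12 members in those 3 lists. The long-list counts stand beside the 28.6% to 29.0% of all genes with a summit in lists of that length, shares that the short piRNA genes lower. The thresholded counts stand beside 3.34% of all genes. F38E11.10 was also the member just inside the 100 bp limit, its summit lying 85 bp from the gene. C52E4.8 and F38E11.10 each have 1 identical copy, and group B has the lowest uniqueness of the 5 lettered groups.

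The spliced-leader genes split by family. Of the 18 sls-2 genes 5 had a thresholded summit, 11 a pooled summit and 5 no summit in any list, while none of the 12 sls-1 genes had a summit in any list. Counts for sls-2 were 7 in the strongest regions of replicate 1 and 4 in those of replicate 2. Over all nuclear genes 3.34% had a thresholded summit and 28.6% a pooled one. In the strongest regions of replicates 1 and 2 the shares of all genes were 3.42% and 3.35%. The strongest member of the whole set was sls-2.4 (chrI:4172206-4172315), with signal 505.33 and rank 60, and ranks 68 and 64 in the replicates. The genes sls-2.1 (chrII:5844865-5844974) and sls-2.2 (chrII:5543598-5543707) had signals 303.69 and 240.59, with ranks 227, 165 and 307 for the former and 371, 256 and 452 for the latter. On III sls-2.8 had signal 195.81 and ranks 584, 603 and 640. All 4 were in the stronger part of the list in both replicates. The fifth, sls-2.7, had signal 116.09 and rank 1577, with rank 1271 in replicate 1 and no summit within 100 bp in the list of replicate 2. The member just outside the limit was sls-2.9, with the nearest thresholded summit 114 bp away. Of the 10 smy genes none had a thresholded summit and 1, smy-11, was in the pooled list, with a summit of rank 24958.

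The sls-1 genes lie together at chrV:17118154-17132107 in a repeat, where a median of 0% of 31-base words around a gene occur once in the genome. No thresholded summit lay within this stretch, the nearest to any sls-1 gene being 375817 bp away, and the pooled list held 1 summit in it, at least 751 bp from each sls-1 gene. An absence of summits there cannot be told apart from an absence of uniquely placed reads.

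**Figure D3:**
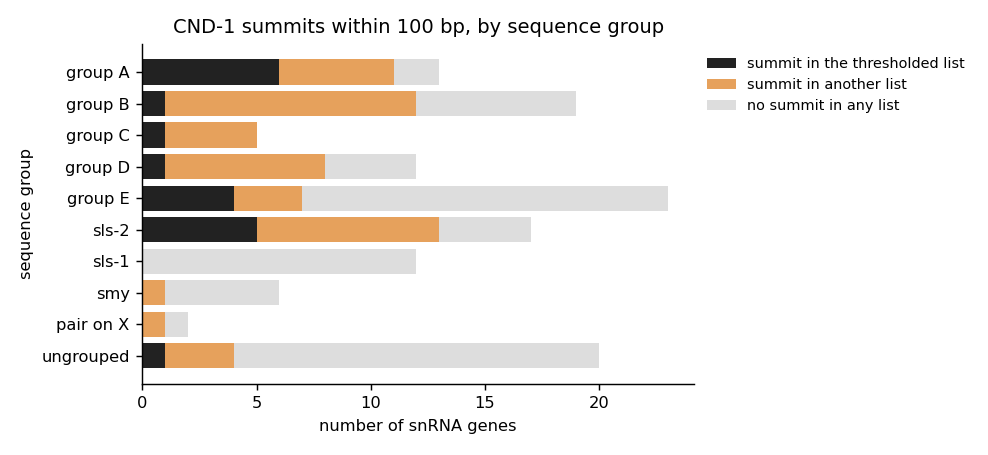
Number of snRNA genes (x axis) in each sequence group (y axis), split by whether a summit lay within 100 bp in the thresholded list, only in another of the 4 lists, or in none. Groups A to E are the lettered groups of the text, and the ungrouped bar holds 1 further sls-2 gene, 4 further smy genes and mir-1831. Group A has 6 of 13 members in the thresholded list, sls-1 has none in any list, and 16 of 23 members of group E are in no list.

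Of the members without a thresholded summit, 3 were among the 1940 strongest regions of replicate 1 and none among those of replicate 2. These 3, named after their values had been seen, were sls-2.15 at rank 1255 and at rank 16096 in replicate 2, and sls-2.5 and Y9C9A.111 at ranks 1373 and 1927, both with no summit in replicate 2. By the worse of its ranks in the replicates the first was sls-2.14, inside W09D6.5, at ranks 2547 and 2685. It was followed by T27E4.12 and T27E4.22 of group A, which overlap and share their summits at ranks 3871 and 4562. Then came F32B5.9 of group D at ranks 2085 and 6039 and sls-2.10 at ranks 6878 and 4508. Over all 129 genes 32 had a summit in both replicate lists and 28 in 1 of them. The matching shares of all nuclear genes were not counted. In each replicate list taken alone the share of all genes was 28.9% and 29.0%.

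Counts differed between levels of sequence uniqueness but did not rise evenly with it. The measure is the share of 31-base words from 100 bp before to 100 bp after a gene that occur once in the genome. Of the 16 genes with under 25% such words none had a thresholded summit and 1 was in any list, of 24 genes between 25% and 50% there were 2, of 38 between 50% and 75% there were 10, and of 51 genes at 75% or more there were 7. The median was 70.7% for members with a thresholded summit, 66.65% for those without, and 34.7% in group B. Counts were lowest where uniqueness was lowest, and 12 of the 16 genes at that level are the sls-1 genes, which lie together in a repeat. The part of uniqueness in the counts by group was not tested. High uniqueness did not go with a summit by itself, since the smy genes had a median of 100% and no thresholded summit.

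**Figure D4:**
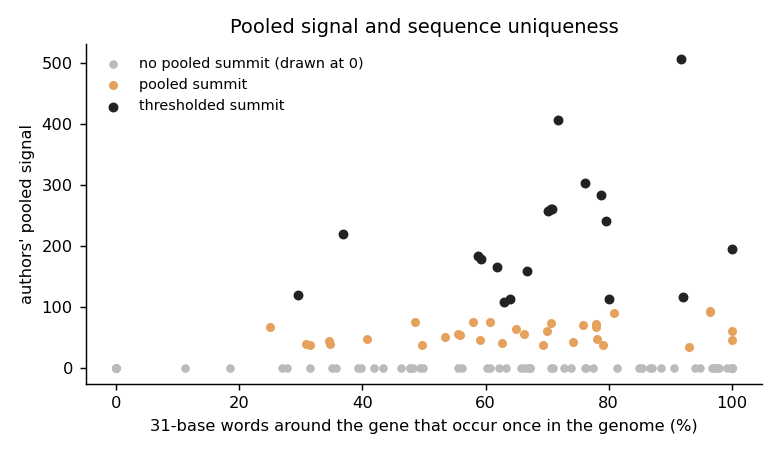
The authors' signal of the pooled summit within 100 bp of each snRNA gene (y axis, scale of the peak caller) against the percent of 31-base words around the gene that occur once in the genome (x axis). Each point is 1 gene, and genes with no pooled summit are drawn at 0. No black point, a gene with a thresholded summit, lies under 25% on the x axis, and genes at 0 are found at all levels of uniqueness.

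Summits were spread over the genes and their flanks and lay upstream of some genes and inside others. Counted from the first base of the gene along its strand, the median of the strongest thresholded summit of each gene lay at +37, with a range from −85 to +158, and 7 were upstream, 10 inside and 2 downstream of the gene. For the same members the median was +45 in replicate 1 and +42.5 in replicate 2. The upstream element was in the central 100 bp of 2 of the 18 peaks (11.1%), against 1.91% of all 1940 peaks. The members with a peak hold 8 distinct elements in all. At the 4 members with 2 thresholded summits the weaker was not searched. That of sup-6, at −49, lay inside its element, whose first base is at −54. Over the 18 members with a summit in both replicates, the strongest summits differed by a median of 38.5 bp, within the range 0 to 154, and 11 differed by 50 bp or less. In 9 of these 18 a replicate had 2 summits within 100 bp of the gene, so the strongest could switch between them. Over the 9 members with 1 summit in each replicate the median difference was 21 bp and the largest 105 bp, at R07E5.16. At sls-2.4 the summits lay at +83 in both replicates and at F54D8.7 at −30 and −29. At sup-6 replicate 1 had summits at −44 and, stronger, at +158, and replicate 2 had 1 summit, at +4. With sonicated fragments of 200 to 800 bp by the labels, a gene of about 100 bases and its promoter are not resolved from each other.

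**Figure D5:**
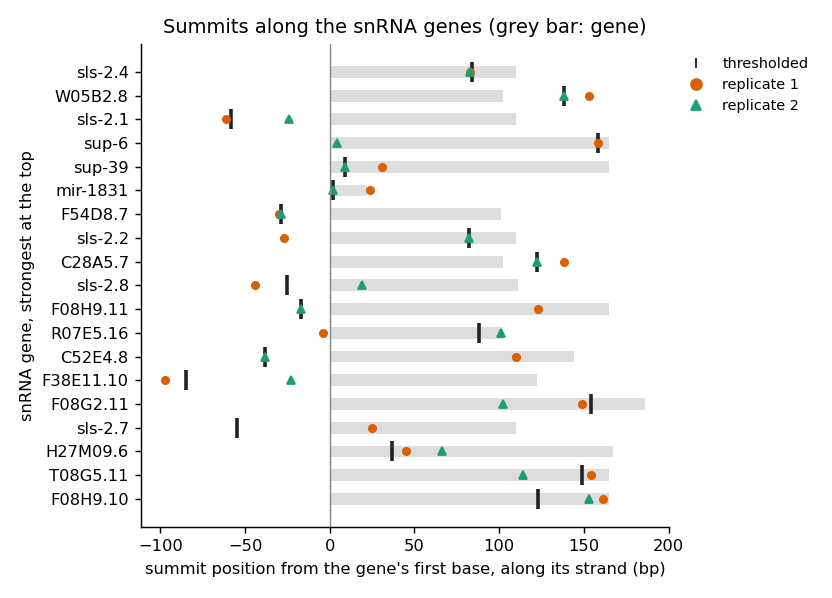
Position of the strongest summit from the first base of the gene along its strand (x axis, bp) for the 19 members with a thresholded summit (y axis, strongest at the top). Grey bars are the genes, black ticks the thresholded summits, circles replicate 1 and triangles replicate 2. The ticks run from −85 at F38E11.10 to +158 at sup-6, and sls-2.7 has no triangle.

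E-boxes, the sites bound by proteins of the CND-1 family, were found at a minority of the snRNA peaks. In the 100 bp centred on the summit, CANNTG was present at 4 of 18 snRNA peaks (22.2%), against 49.4% of all 1940 peaks and 32.7% of the 202 peaks at tRNA genes. The 4 were those at sls-2.1, F54D8.7, sls-2.8 and C52E4.8, and all 4 had a summit upstream of the gene. The form CAGATG was at none of the 18 against 17.4% of all peaks, and CAGCTG at 1 against 6.86%. In 200 bp windows CANNTG was at 8 (44.4%) against 67.4% of all peaks. With 18 peaks these are descriptions, with no test. The weaker summits of sls-2.1, sup-6, C28A5.7 and C52E4.8, which had 2 each, were not searched, so E-boxes there are not counted. The element of sup-6, with its CANNTG, is at such a summit. Before 8 snRNA genes an upstream CANNTG overlapped the element so that its TG is the start of TGTC, and 2 of these 8, sup-6 and sls-2.8, had a thresholded summit. Since T27E4.12 and T27E4.22 share an element, these are 7 elements, 4 of them in group A. Motifs were counted on both strands, and a match is not a site.

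Of the 19 members with a thresholded summit, 7 lay inside a protein-coding gene, against 56 of the 110 without. In 6 of the 19 the summit was also within 500 bp of a protein-coding transcript start, so which of the genes a summit belongs to cannot be told apart by position. The closest were sls-2.7, 90 bp from a start of W06D4.3, F08H9.10, 109 bp from F08H9.3, and sls-2.8, 220 bp from Y75B8A.23. H27M09.6 was 245 bp from syp-4, a gene of the synaptonemal complex, C52E4.8 was 357 bp from snr-4, which encodes a core Sm protein of the spliceosome, and F08H9.11 was 481 bp from clec-57. By chromosome, summits were at 6 of 16 members on II, 5 of 13 on III, 3 of 16 on I, 4 of 40 on V, 1 of 41 on IV and 0 of 3 on X. The matching shares of all genes on each chromosome were not counted.

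The protein side of the same machinery was read from a list of 85 genes for the spliceosome, snRNP assembly and snRNA transcription, of which 79 matched a protein-coding symbol. A thresholded summit lay between 1500 bp before and 500 bp after a transcript start of 13 of the 79 (16.5%), against 7.38% of the 19973 protein-coding genes. In the strongest regions of each replicate alone the count was 10 (12.7%), against 7.17% and 7.20% of protein-coding genes in replicates 1 and 2. The rings of Sm and LSm proteins, which bind the snRNAs, had 5 of 15: snr-1 with signal 390.88 and rank 127, lsm-3 with 166.58, snr-4 with 165.19, snr-2 with 138.26 and lsm-7 with 105.8. The peak of snr-4 is also that of C52E4.8. Proteins of the spliceosome had 6 of 39, including prp-19 with signal 226.93, the central factor prp-8 with 151.97, teg-1 with 129.91, mog-3 with 126.57 and snrp-40.1 with 125.04. Of 10 subunits of Integrator, the complex that cleaves the 3′ ends of snRNAs, only ints-4 had a summit, with signal 220.91 at 35 bp downstream of its start. The survival-motor-neuron gene smn-1 was the only 1 of 6 in spliced-leader RNP and SMN assembly, with signal 107.66, and it was in the strongest regions of neither replicate. None of the 9 genes for snRNA transcription had a summit. The counts of 10 in the replicates hold different genes. Outside the strongest regions were prp-8, snrp-40.1 and lsm-7 in replicate 1, and mog-3 and mog-4 in replicate 2. The count of replicate 1 includes cacn-1, which had no thresholded summit. The genes lsm-7, smn-1, mog-4 and cacn-1 were named after their values had been seen.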

How the data were processed

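Peak lists of CND-1-GFP ChIP-seq from 2 biological replicates in 1 group were used as deposited. The deposited regions carry the authors' signal, the peak caller's value on an unstated scale, and the authors' −log10 q-value, which was not used. Per the deposited notes each list derives from replicate alignments to ce11 and 1 further file shared by all lists. The aligner, the peak caller, the limit behind the thresholded list and the treatment of reads that match several places were not given in the sources used here, and the control was not analysed.

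The summit is the region start plus the offset in the file, and 24 mitochondrial regions of the thresholded list were left out. Genes came from Ensembl release 115, unique names (129 of 129 matched) and sequence from RefSeq, whose WBcel235 assembly is ce11. Distances run to the nearest base of the gene. Sequence groups join genes of at least 80% identity in global alignment, by single linkage. Shares of a gene type with a summit carry exact Clopper-Pearson intervals at 95% where printed, and shares of motifs and of machinery genes are given without. A gene with several summits in a list takes the strongest. There is no contrast, so no p-value is given.

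The named genes are all members with a thresholded summit, the 5 others with the best worse rank in the replicates, the members just inside and outside 100 bp, and the 10 strongest machinery genes. The members, lists and motifs were chosen with earlier results of these data known. The counting was checked on made-up genes and summits with known answers. Python 3.11.15, pandas 2.3.3, NumPy 2.4.6, SciPy 1.17.1 and Biopython 1.88 were used. Alternatives were other distances, the stronger part of the list, each replicate alone, overlap of regions, merged loci, peaks near tRNA or snoRNA genes left out, and other windows.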

Additional observations from a re-analysis of the deposited data

How the results depend on the processing

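The count of 19 snRNA genes with a summit fell to 10 when the summit had to lie inside the gene. It was 17 within 50 bp, 20 within 250 bp, and 18 by overlap of the region with the gene, which leaves out W05B2.8. It was 18 with neighbouring members counted once, 14 in the stronger part of the list and 19 without peaks near tRNA or snoRNA genes. Leaving out a replicate gave 16 to 20. The median position of +37 was +70 over the pooled list, and +33.5 to +84.5 when each replicate's whole list was used alone, which brings in 44 and 48 members in place of 19. The machinery count of 13 was 11 in the window from 500 bp upstream to 250 bp downstream, and 10 in each replicate alone. E-boxes were at 4 peaks in 100 bp and at 8 in 200 bp windows.

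No paired analysis was possible because both replicates belong to 1 group. Depth and mapping of repeated copies are not given in the lists, which limits what absence of a summit at identical copies can show.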
